A study of Mus musculus with 5 samples.

Results

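Potassium channel genes were examined in RNA-seq of cultured mouse neural stem cells (NSCs) and of STO cells. The 92 genes were chosen by symbol alone, as those named Kcn followed by a family letter or letters and a number, out of 24843 genes in the deposited files, and the transcript Kcnq1ot1 was left out because it codes for no channel. NSCs were primary cells of embryonic cortex, kept for 5 to 8 passages on poly-l-ornithine and laminin with EGF, bFGF, heparin and B27, and were sequenced in 2 libraries. STO cells are a line derived from SIM mouse embryonic fibroblasts, kept for more than 30 passages in DMEM with fetal bovine serum, and were sequenced in 3 libraries. The labels give the strain C57BL/6 for both and name no gene change and no treatment in either. The paper, however, describes the STO line as derived from SIM mice and resistant to thioguanine and ouabain. A matched genetic background can therefore not be taken from the labels. The groups differ at least in cell type, medium, substrate and passage at once, and the parts of these cannot be told apart. An STO library stands for 1 established line.

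Potassium channels let potassium ions leave or enter a cell along their gradient, and so set its resting potential and the shape and timing of its electrical signals. Voltage-gated pore subunits (Kcna, Kcnb, Kcnc, Kcnd) assemble as tetramers and open on depolarization, and accessory subunits (Kcnab, Kcne, Kcnip) bind to them and change their gating or their transport to the membrane. Inward rectifiers (Kcnj) and tandem-pore channels (Kcnk, also called K2P) carry current near rest. Calcium-activated channels (Kcnma, Kcnn) link potassium flow to calcium inside the cell. Glia are known for clearing potassium with inward rectifiers, and mature neurons for fast voltage-gated channels.

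Values are FPKM, fragments scaled by transcript length and library depth, summed over the transcripts of each gene. They are levels per length, so genes can be compared with each other. Implied fragments, worked out from the deposited confidence intervals, came to 20587300 and 22271900 per NSC library and to between 15223300 and 21952800 per STO library, a rough estimate that covers counting error only. On this scale a single fragment in a transcript of 1 kb stood for between 0.0449 and 0.0657 FPKM. The libraries matched their labels. All 8 neural stem cell markers, among them Sox2, Nes and Fabp7, had a mean of at least 1 FPKM in NSCs and summed to between 3848 and 4063 FPKM there, against between 0.0509 and 0.0746 FPKM in STO libraries. Of 6 fibroblast markers, 5 had at least 1 FPKM in STO cells and none in NSCs, with sums from 975 to 1050 FPKM and from 0.961 to 1.32 FPKM. NSC libraries also held markers of glia and neurons. The 4 astrocyte markers, Gfap, Aqp4, Aldh1l1 and S100b, all had at least 1 FPKM in NSCs and summed to 70.4 and 71.4 FPKM, against 0.242 to 0.432 FPKM in STO libraries. The 7 neuronal markers summed to 120 FPKM in each NSC library and to between 12.3 and 12.9 FPKM in STO libraries. Most of the NSC sum was Map2, with means of 101 FPKM in NSCs and 4.31 FPKM in STO cells. Most of the STO sum was Tubb3, which had close means of 8.69 FPKM in NSCs and 8.30 FPKM in STO cells. In NSCs 5 of the 7 had at least 1 FPKM. Besides Map2 and Tubb3 these were Dcx, Snap25 and Syt1, with NSC means of 4.71, 3.13 and 1.26 FPKM. Their STO means were 0.00108, 0 and 0.0301 FPKM. Rbfox3 and Stmn2 had NSC means of 0.515 and 0.0806 FPKM and were listed at 0 in STO cells. Of 6 oligodendrocyte lineage markers, 5 had at least 1 FPKM in NSCs, among them Mbp at 83.4 and 88.3 FPKM, and the list summed to 178 and 183 FPKM in NSCs and to between 349 and 360 FPKM in STO libraries, where Pdgfra made up most of it. No microglial or endothelial marker reached 1 FPKM in either group, and of 4 smooth muscle and pericyte markers only Acta2 did, in both. The neural stem cell, astrocyte and neuronal sums were higher in NSCs, as were the potassium channel sums given below. The fibroblast, oligodendrocyte lineage, and smooth muscle and pericyte sums were lower in NSCs. The part of these lists in the differences given below was not tested. In bulk RNA, fewer cells of a type and less RNA per cell cannot be told apart.

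Potassium channel transcripts were far more abundant in NSCs than in STO cells. Summed over the 92 genes, their level was 457 and 470 FPKM in the NSC libraries and 23.7, 22.0 and 22.0 FPKM in STO replicates 1, 2 and 3. The groups did not overlap, and the NSC mean of 463 ± 9.53 FPKM (SD, n = 2) was 20.5 times the STO mean of 22.6 ± 1.01 FPKM (SD, n = 3). In each NSC library 34 of the 92 genes had at least 1 FPKM and 13 had at least 10. In the STO libraries 6, 5 and 6 genes had at least 1 FPKM and none reached 10. Over all genes the share with at least 1 FPKM was nearly equal, at 45.8% in both NSC libraries and from 42.9% to 43.1% in STO libraries. The 5 highest potassium channel genes made up 53.4% of the summed NSC level, and the 5 highest made up 76.3% of the STO sum.

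By mean level, 29 genes had at least 1 FPKM only in NSCs, 5 in both cell types (Kcnab2, Kcnab3, Kcnip3, Kcnk2 and Kcnk5) and 1 only in STO cells (Kcnd1). The other 57 were below 1 FPKM in both. Of these, 30 had higher values in both NSC libraries than in any STO library and 6 had lower ones. Among all 12566 genes below 1 FPKM in both, of which 7198 were at 0 in every library, these shares were 12.9% and 9.57%. Listed at 0 in all 3 STO libraries were 40 genes, and 11 of these had a mean of at least 1 FPKM in NSCs. The share of all genes at 0 in all 3 STO libraries was not worked out, so this count has no background. By single library, 50, 53 and 52 of the 92 genes were at 0 in STO replicates 1, 2 and 3. In NSC replicates 1 and 2 these were 15 and 17. Over all genes the shares at 0 were 41.4%, 41.4% and 40.2% in the STO libraries and 37.6% and 39.2% in the NSC libraries. A listed 0 can also be a failed estimate, though few transcripts had a status other than OK. These numbered 0, 4 and 13 in STO replicates 1, 2 and 3, and 8 and 20 in NSC replicates 1 and 2. Listed at 0 in all 5 libraries were 9 genes: Kcnb2, Kcne3, Kcnh3, Kcnj1, Kcnk9, Kcnk15, Kcnk16, Kcnmb2 and Kcnq1.

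Groups were compared with limma, with Benjamini-Hochberg adjustment over all 12277 genes that had a mean of at least 1 FPKM in NSCs or STO cells, on log2(FPKM + 1), a scale on which changes of weakly expressed genes look smaller than they are. The labels do not say whether replicates were separate cultures, so p-values measure the spread between these libraries, which may be technical. Across all tested genes 43.7% were higher and 41.9% were lower in NSCs at an adjusted p-value under 0.05. Of the 35 potassium channel genes that passed the filter, 34 were higher in NSCs and 1, Kcnd1, was lower. For a gene that passed the filter only through the group in which it is high, the direction of the means was fixed beforehand. This count therefore describes the 35 genes and not all 92. Differences of at least 1 on the log2 scale were found for 31 higher and 1 lower, where the shares over all genes were 21.3% and 17.1%. The median log2 difference was 1.98 for the 35 genes and 0.02 for all tested genes. With every gene above 0 in some library included, 83 potassium channel genes were tested, 59 were higher and 4 lower, where the shares over all genes were 37.1% and 33.5%.

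**Figure D1:**
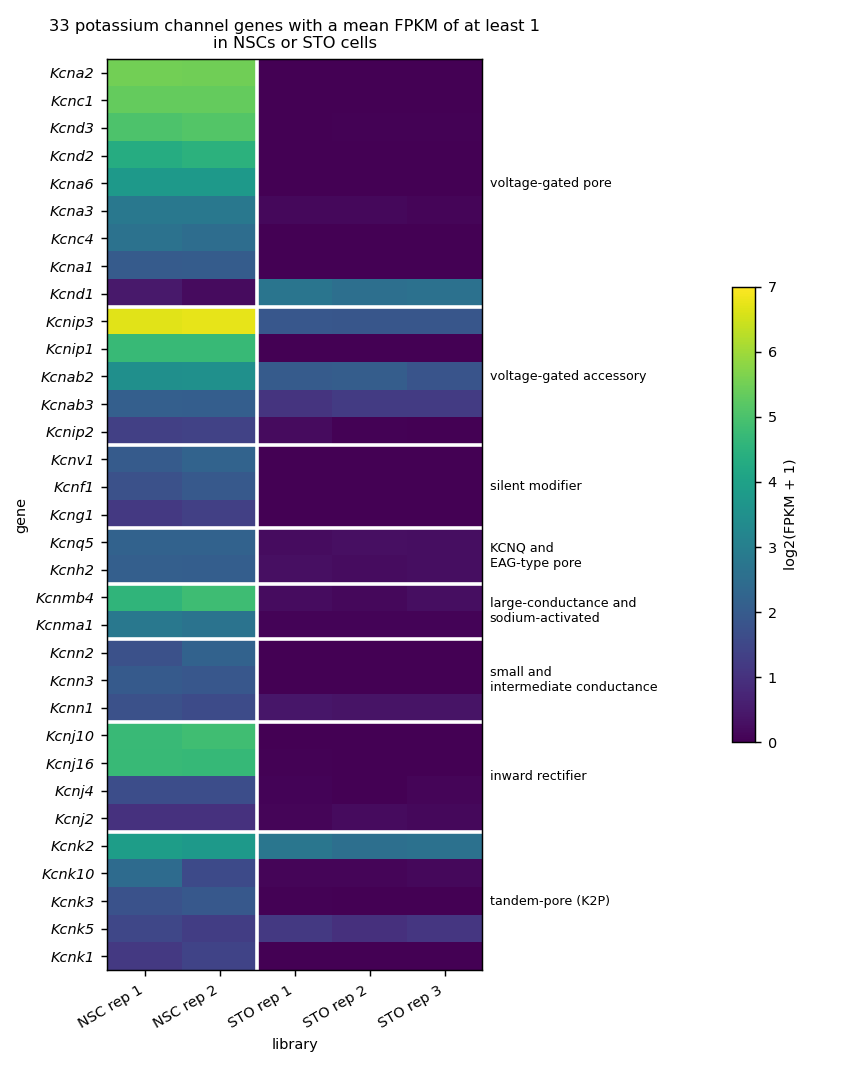
Level of 33 of the 35 potassium channel genes with a mean of at least 1 FPKM in NSCs or STO cells, as log2(FPKM + 1) by color, with 1 column per library and genes grouped by class and ordered by NSC level. The 2 NSC columns are brighter than the 3 STO columns for every gene shown but Kcnd1.

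Each of the 8 classes had a higher sum in both NSC libraries than in any STO library, but by unequal amounts. Voltage-gated pore subunits were the class with the highest NSC sum, 179 ± 2.00 FPKM (SD, n = 2) against 5.95 ± 0.371 FPKM (SD, n = 3) in STO cells, and voltage-gated accessory subunits followed with 144 ± 3.55 and 8.14 ± 0.341 FPKM. Inward rectifiers stood at 58.1 ± 1.80 and 0.592 ± 0.0768 FPKM. Large-conductance and sodium-activated channels stood at 31.6 ± 2.77 and 0.523 ± 0.0399 FPKM. The smallest ratio between groups was that of tandem-pore channels, 23.1 ± 2.43 and 6.57 ± 0.558 FPKM, or 3.52-fold. These channels made up 4.99% of the NSC sum and 29.1% of the STO sum. The sums of the other classes in NSCs were 10.3 FPKM for KCNQ and EAG-type pore subunits, 8.58 FPKM for silent modifier subunits and 8.27 FPKM for small and intermediate conductance channels, against 0.403, 0.0301 and 0.369 FPKM in STO cells. The order of these last 3 classes in NSCs rests on small gaps, since silent modifiers ranged from 7.75 to 9.41 FPKM and small conductance channels from 7.96 to 8.58 FPKM.

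**Figure D2:**
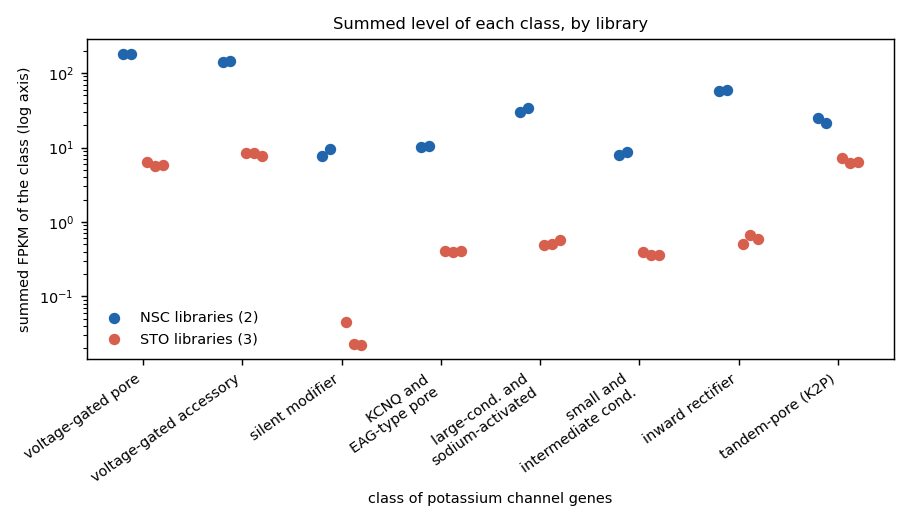
Summed FPKM of each class of potassium channel genes (log axis), with 1 point per library, 2 for NSCs and 3 for STO cells. The gap between the groups is smallest for tandem-pore channels, at 3.52-fold between the means, and the STO points lie below the NSC points in every class.

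Among the voltage-gated pore subunits, 11 of 17 genes were tested, and 10 were higher and 1 lower in NSCs. Over all tested genes 43.7% were higher and 41.9% lower. Here and in the classes below, the filter fixed the direction of the means of a gene that passed only through its high group. The highest in NSCs was Kcna2 (chr3:106904485-106917923, mm9), which encodes Kv1.2, a delayed rectifier subunit known from axons. Kcna2 was at 44.8 and 43.5 FPKM in the NSC libraries and was listed at 0 in all 3 STO libraries. Its log2 difference of 5.50 (SE 0.05, limma adjusted p = 4.57e-09), like that of any gene listed at 0 in one group, depends on the pseudocount and is no bound. Kcnc1 (chr7:53651838-53694074), which encodes the fast-closing Kv3.1, was at 39.5 and 39.6 FPKM in NSCs. In STO cells it was at 0.0114 FPKM in replicate 1 and listed at 0 in replicates 2 and 3, and its log2 difference was 5.34 (SE 0.05, limma adjusted p = 4.57e-09). Both genes were thus at close levels in the NSC libraries and at or near 0 in STO cells.

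The Kcnd genes, which encode the Kv4 channels of the rapidly inactivating A-type current, moved in opposite directions. Kcnd3 (Kv4.3, chr3:105255248-105476920) was at 32.2 and 34.2 FPKM in NSCs and at 0.0186, 0.0324 and 0.0325 FPKM in STO replicates 1, 2 and 3. Its log2 difference was 5.06 (SE 0.05, limma adjusted p = 5.23e-09). Kcnd2 (Kv4.2, chr6:21166109-21679805) was at 19.3 and 21.5 FPKM in NSCs and listed at 0 in the 3 STO libraries, with a log2 difference of 4.42 (SE 0.06, limma adjusted p = 1.02e-08). Kcnd1 (Kv4.1, chrX:7400885-7415404) was the only potassium channel gene among the 35 that was lower in NSCs. It was at 0.383 and 0.160 FPKM in NSCs and at 5.54, 4.84 and 5.12 FPKM in STO replicates 1, 2 and 3, without overlap between the groups. It fell by 2.28 on the log2 scale (SE 0.09, limma adjusted p = 1.20e-06). Some 45.8 and 21.0 implied fragments stood behind its NSC values and between 472 and 661 behind its STO values. Kcnd1 made up most of the voltage-gated pore level of STO cells, 5.17 of 5.95 FPKM on average.

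The voltage-gated pore subunits among the 12 largest rises also included Kcna6 and Kcna3. Kcna6 (Kv1.6) was at 12.5 and 12.7 FPKM in NSCs and listed at 0 in the STO libraries, with a log2 difference of 3.76 (SE 0.04, limma adjusted p = 6.84e-09). Kcna3 (Kv1.3), a delayed rectifier also known from lymphocytes, was at 6.03 FPKM in both NSC libraries and at 0.113, 0.118 and 0.0739 FPKM in STO replicates 1, 2 and 3. The log2 difference of Kcna3 was 2.67 (SE 0.05, limma adjusted p = 2.26e-08). Kcnc4 and Kcna1 stood at lower levels, with NSC means of 5.00 and 3.06 FPKM, and both were higher than in STO cells. Among the 6 genes of this class below the filter, Kcna4 (Kv1.4) was at 0.486 and 0.354 FPKM in NSCs and at 0.668, 0.639 and 0.631 FPKM in STO cells, a small gap in the STO direction, without overlap.

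Several of these genes lie next to one another, and neighbours stood at unequal levels. On chromosome 3, Kcna3 (start 106839080) lies 63.4 kb before Kcna2, and Kcna10 lies 68.1 kb beyond it. Their NSC means were 6.03, 44.2 and 0.0325 FPKM. On chromosome 6, Kcna5, Kcna1 and Kcna6 follow each other within gaps of 101 and 62.5 kb, and their NSC means were 0.196, 3.06 and 12.6 FPKM. In STO cells the highest mean of the 6 genes was that of Kcna3, 0.101 FPKM.

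Accessory subunits of voltage-gated channels held the gene with the highest level of the 92. Of 11 genes 5 were tested, and all 5 were higher in NSCs, beside 43.7% of all tested genes. Kcnip3 (chr2:127282234-127347830) encodes KChIP3, a calcium-binding partner of Kv4 channels that is also known as calsenilin and as the transcription repressor DREAM. It was at 101 and 106 FPKM in NSCs and at 2.73, 2.66 and 2.67 FPKM in STO replicates 1, 2 and 3. The log2 difference was 4.83 (SE 0.05, limma adjusted p = 5.23e-09), and the NSC mean was 38.6 times the STO mean. Kcnip1 (chr11:33529341-33893193), which encodes KChIP1, was at 25.3 and 25.5 FPKM in NSCs and listed at 0 in all STO libraries, with a log2 difference of 4.72 (SE 0.05, limma adjusted p = 4.92e-09). Kcnmb1, which overlaps it on the other strand, had an NSC mean of 0.0290 FPKM. Kcnip2 was lower, at 1.52 and 1.62 FPKM in NSCs and at 0.158, 0.0385 and 0.0145 FPKM in STO cells.

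The beta subunits of Kv1 channels showed smaller differences. Kcnab2 (chr4:151764853-151851658) was the accessory gene with the highest mean in STO cells, with 3.06, 3.14 and 2.56 FPKM there, and was at 10.1 and 10.4 FPKM in NSCs. For Kcnab2 the log2 difference was 1.52 (SE 0.08, limma adjusted p = 4.36e-06), a ratio of 3.51 between means. Kcnab3 was at 3.31 and 3.23 FPKM in NSCs and at 1.07, 1.31 and 1.33 FPKM in STO cells, a log2 difference of 0.93 (SE 0.07, limma adjusted p = 2.18e-05). Kcnab1 lay below the filter with the opposite order. It was at 0.0223 and 0.112 FPKM in NSCs and at 0.871, 0.882 and 0.959 FPKM in STO cells, and with no filter on low values it was lower in NSCs by a log2 difference of -0.84 (SE 0.05, limma adjusted p = 3.53e-05). So the Kcnd and the Kcnab families each held 1 gene with more signal in STO cells and others with more in NSCs.

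**Figure D3:**
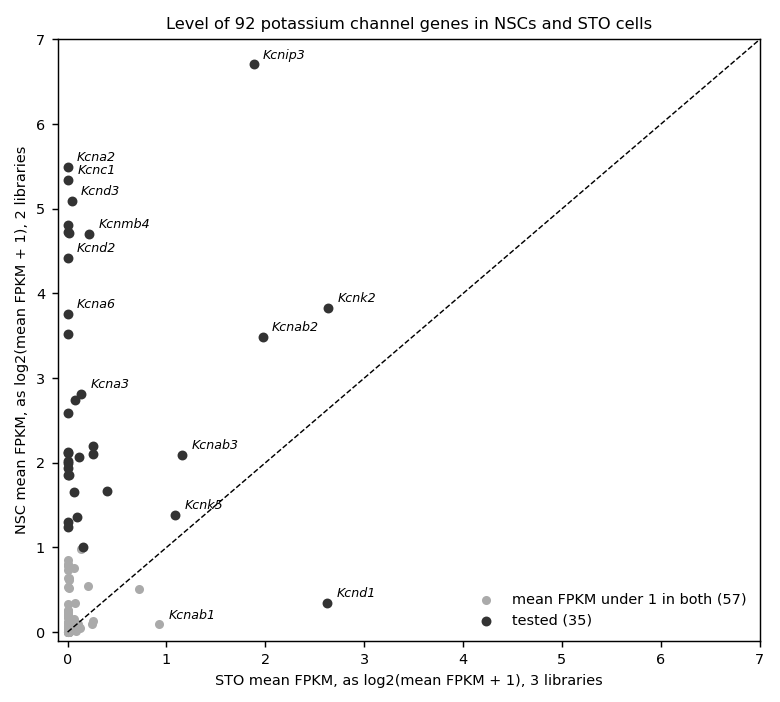
Mean level of the 92 potassium channel genes in NSCs (vertical, 2 libraries) and in STO cells (horizontal, 3 libraries), as log2(mean FPKM + 1), with the line of equal levels dashed. Kcnd1 lies far below the line, Kcnip3, Kcnk2, Kcnab2, Kcnab3 and Kcnk5 lie above it with some level in both, and most other tested genes lie along the left edge.

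Inward rectifiers were led by the glial pair Kcnj10 and Kcnj16. Of 15 genes 4 were tested, and all 4 were higher in NSCs, beside 43.7% of all tested genes. These 4 passed the filter through NSCs alone, which fixed the direction of their means. Kcnj10 (chr1:174271341-174304216) encodes Kir4.1, the main potassium-buffering channel of astrocytes. It was at 25.8 and 28.1 FPKM in NSCs, at 0.00715 FPKM in STO replicate 2 and listed at 0 in STO replicates 1 and 3. Its log2 difference was 4.80 (SE 0.06, limma adjusted p = 6.82e-09). Kcnj16 (chr11:110829347-110889281) encodes Kir5.1, which forms channels together with Kir4.1, and was at 25.4 and 25.0 FPKM in NSCs. In STO replicate 1 it was at 0.0245 FPKM and in replicates 2 and 3 it was listed at 0, and its log2 difference was 4.70 (SE 0.05, limma adjusted p = 5.23e-09). The subunits of this channel thus had close levels in NSCs although they lie on different chromosomes. Their neighbours did not share the level, since Kcnj9, 11.9 kb from Kcnj10, had an NSC mean of 0.976 FPKM, and Kcnj2, 38.2 kb from Kcnj16, had 1.01 FPKM. Kcnj2 (Kir2.1) was at 1.02 and 0.996 FPKM in NSCs and at 0.0651, 0.163 and 0.117 FPKM in STO cells, with a log2 difference of 0.85 (limma adjusted p = 8.28e-06) that turned to -0.11 (adjusted p = 0.16) after quantile normalization. Kcnj4 had an NSC mean of 2.14 FPKM. The remaining 11 had means below 1 FPKM in both, among them Kcnj11, the pore of the ATP-sensitive channel, at 0.479 and 0.416 FPKM in NSCs and listed at 0 in STO cells. Kcnj14 had the highest STO mean of the class, with 0.118, 0.132 and 0.209 FPKM, though not the highest value in STO replicate 2, and was at 0.277 and 0.638 FPKM in NSCs.

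Calcium-activated channels were led by a subunit of the large-conductance (BK) channel. Kcnmb4 (chr10:115854924-115910579), the beta subunit known from brain, was at 22.8 and 27.3 FPKM in NSCs and at 0.176, 0.115 and 0.203 FPKM in STO replicates 1, 2 and 3. Its log2 difference was 4.48 (SE 0.09, limma adjusted p = 3.79e-08). The noncoding gene Kcnmb4os2 overlaps it and was at 13.0 and 10.5 FPKM in NSCs and listed at 0 in STO cells. The libraries were made with a stranded kit, but the strand setting of the quantification is not given in the sources used here, so how reads were shared between these genes is uncertain. The pore gene Kcnma1 was at 5.98 and 5.36 FPKM in NSCs and between 0.0483 and 0.0580 FPKM in STO cells, so the beta subunit stood above the pore in NSCs. The sodium-activated channels stayed below 1 FPKM in both cell types. Kcnt1 had the higher values in NSCs, 0.651 and 0.721 FPKM against at most 0.0736 FPKM in STO cells, and Kcnt2, the highest of the class by STO mean though not in STO replicate 3, was at 0.0804 and 0.0587 FPKM in NSCs and at 0.179, 0.215 and 0.176 FPKM in STO cells. Of the 4 small and intermediate conductance genes 3 were tested, and all 3 were higher in NSCs, beside 43.7% of all tested genes. These 3 passed the filter through NSCs alone, which fixed the direction of their means. Kcnn2 (SK2) was at 2.35 and 3.64 FPKM and Kcnn3 (SK3) at 2.93 and 2.72 FPKM in NSCs, and both were listed at 0 in STO cells. Kcnn1 (SK1) was the highest of the class in STO cells, at 0.351, 0.297 and 0.295 FPKM, and was at 2.35 and 2.01 FPKM in NSCs, with a log2 difference of 1.27 (SE 0.06, limma adjusted p = 2.62e-06). The 3 NSC means, 2.99, 2.83 and 2.18 FPKM, differed little beside the gap between the libraries in Kcnn2.

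KCNQ and EAG-type channels were at low levels in both cell types. Of 13 genes 2 were tested and both were higher in NSCs, beside 43.7% of all tested genes. Both passed the filter through NSCs alone, which fixed the direction of their means. Kcnq5 (chr1:21388480-21952731), a subunit of the slow M-type current, had the highest mean of the class in each cell type, at 3.56 and 3.62 FPKM in NSCs and at 0.179, 0.224 and 0.189 FPKM in STO cells. The log2 difference of Kcnq5 was 1.94 (SE 0.04, limma adjusted p = 7.90e-08). Kcnh2, the ERG channel known from the heart, was at 3.37 and 3.25 FPKM in NSCs and between 0.171 and 0.210 FPKM in STO cells, where its values overlapped those of Kcnq5. Kcnq3, a further subunit of the M-type current, had an NSC mean of 0.751 FPKM and was listed at 0 in STO cells. Silent modifier subunits, which form no channel alone and join Kcnb subunits, had 3 of 10 genes tested, and all 3 were higher in NSCs. These 3 also passed the filter through NSCs alone. Kcnv1 was at 3.03 and 3.67 FPKM in NSCs and listed at 0 in STO cells, with a log2 difference of 2.12 (SE 0.07, limma adjusted p = 4.48e-07), and Kcnf1 and Kcng1 had NSC means of 2.61 and 1.37 FPKM. Kcng2, the highest of these subunits by STO mean, had a mean of 0.00869 FPKM there.

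**Figure D4:**
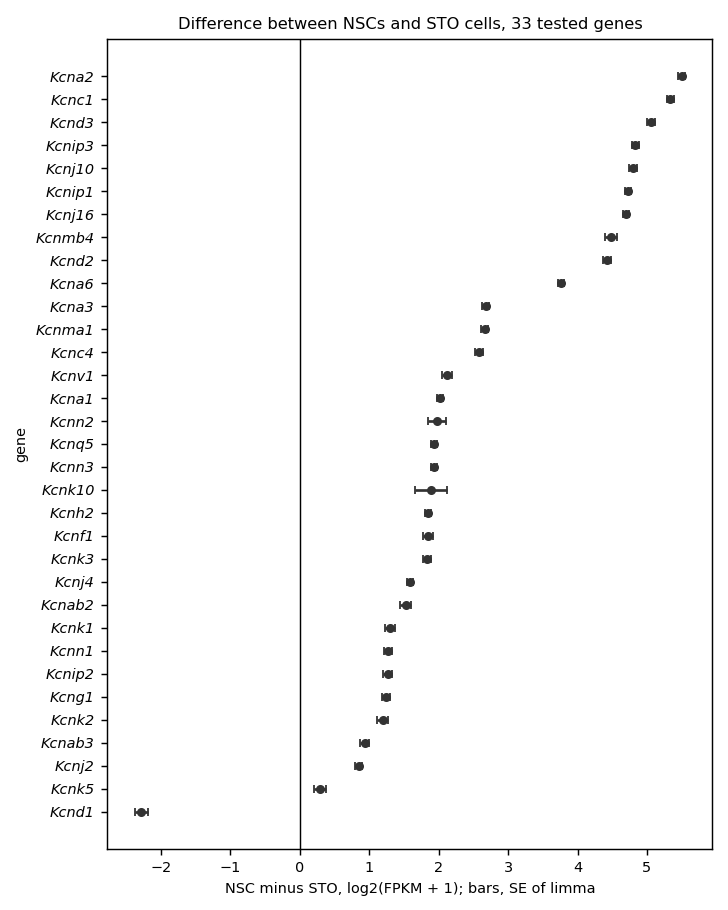
Log2 difference between NSCs and STO cells on the log2(FPKM + 1) scale for 33 of the 35 tested potassium channel genes, with the SE of limma as bars. The differences run from -2.28 for Kcnd1 to 5.50 for Kcna2, and Kcnk5 lies nearest to 0 at 0.29.

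Tandem-pore channels were the class with the least unequal levels. Of 14 genes 5 were tested and 5 were higher in NSCs, beside 43.7% of all tested genes. Kcnk2 (chr1:191031809-191226152) encodes TREK-1, a background channel opened by membrane stretch and by lipids. It was the highest of the class in each cell type, at 13.9 and 12.6 FPKM in NSCs and at 5.68, 4.91 and 5.06 FPKM in STO replicates 1, 2 and 3, and Kcnk2 and Kcnd1 were the 2 highest potassium channel genes in STO cells. Its log2 difference was 1.19 (SE 0.08, limma adjusted p = 1.27e-05), and the ratio of means was 2.53. Kcnk10 (TREK-2) differed in summed FPKM between the NSC libraries, at 4.42 and 1.96 FPKM, and was between 0.0716 and 0.0996 FPKM in STO cells, with a log2 difference of 1.89 (SE 0.23, limma adjusted p = 0.000315). Its implied fragments did not fall with the FPKM, at 343 and 409 in NSC replicates 1 and 2. Its transcript NM_001316666 was at 2.68 FPKM in NSC replicate 1 and listed at 0 in NSC replicate 2. Kcnk3 (TASK-1) and Kcnk1 (TWIK-1) had NSC means of 2.60 and 1.47 FPKM, and STO means of 0.0103 FPKM and a listed 0. Kcnk5 (TASK-2) was at 1.81 and 1.41 FPKM in NSCs and at 1.24, 0.977 and 1.17 FPKM in STO cells. Its log2 difference of 0.29 (limma adjusted p = 0.0175) rested on NSC replicate 1, since without that library it was 0.18 (adjusted p = 0.14), and after quantile normalization it was -0.27 (adjusted p = 0.095).

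The annotated start sites behind the signal were then compared, a step added after the gene values were seen. The 92 genes had 128 start sites in the files, and 24 genes had more than 1. Of 11777 start sites tested over all genes, 42.0% were higher and 41.5% lower in NSCs. Of 40 sites of potassium channel genes, 37 were higher and 3 lower. The filter was the same as for genes. It fixed the direction of the means of a site that passed only through its high group, so this count describes the 40 sites only. Among all genes with at least 2 tested sites, 23.9% (214 of 895) had sites called in opposite directions. Of the 3 potassium channel genes with at least 2 tested sites, Kcnk2, Kcnip3 and Kcnq5, the first 2 did. Cufflinks divides fragments between overlapping isoforms by a model, so a 0 at a start site can be an outcome of that division.

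Kcnk2 lies on the minus strand of chromosome 1, and its signal was placed on different start sites in the 2 cell types. In STO cells all of its signal was placed on the transcript NM_001281848, whose start at 191226152 is the most upstream one and lies outside the GENCODE models of the gene. That site was listed at 0 in both NSC libraries, and fell by 2.63 on the log2 scale (SE 0.07, limma adjusted p = 1.72e-06). In NSCs the signal was placed on 3 sites that lie 58.1, 58.6 and 58.9 kb downstream, with 2.01 and 1.50 FPKM, 7.19 and 6.26 FPKM, and 4.68 and 4.80 FPKM. All 3 were listed at 0 in the STO libraries and were higher in NSCs, by log2 differences of 1.45, 2.95 and 2.52 (limma adjusted p = 4.28e-05, 9.90e-07 and 4.70e-07). No start site of Kcnk2 thus had a value above 0 in both cell types.

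Kcnip3, on the minus strand of chromosome 2, showed the same kind of split with the opposite order of sites. In NSCs its signal was placed on the start at 127347128, 0.702 kb from the most upstream site, with 101 and 106 FPKM (transcripts NM_019789, at 81.7 and 84.8 FPKM, and NM_001291005, at 19.7 and 21.2 FPKM). In STO cells it was placed on the start at 127308235 of NM_001111331, 39.6 kb from the most upstream site, with 2.73, 2.66 and 2.67 FPKM. Each site was listed at 0 in the other cell type, and the log2 differences were 6.71 and -1.88 (limma adjusted p = 8.41e-08 and 1.28e-06). In Kcnab2 signal was placed on the most upstream site in both cell types. The transcript NM_010598 at that site, however, was at 3.36 and 3.56 FPKM in NSCs and listed at 0 in STO cells. In STO replicate 2, 37.7% of the Kcnab2 signal was placed on a site 28.7 kb downstream that was listed at 0 in the other 4 libraries.

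**Figure D5:**
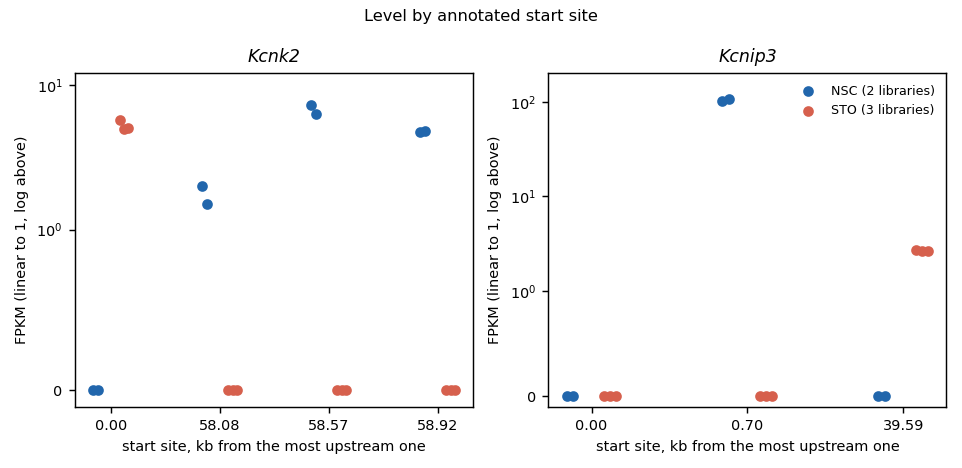
FPKM placed on each annotated start site of Kcnk2 (left) and Kcnip3 (right), with sites ordered by distance in kb from the most upstream one and 1 point per library. The vertical axis is linear up to 1 FPKM and logarithmic above. In both genes every site with signal in 1 cell type is at 0 in the other.

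The 200 bases before a start site were read from mm9 to show how these sites differ, with CG dinucleotides in capitals. They are written 5′ to 3′ on the strand of the gene. A start called used is one on which Cufflinks placed the signal, and the starts themselves were not measured. The first pair belongs to the Kcnk2 site with STO signal and to the most upstream of the 3 sites with NSC signal. The latter held 14.5% and 11.9% of the Kcnk2 signal in the NSC libraries. The second pair belongs to the Kcnip3 sites of NSCs and STO cells, and the last is Kcna2, the gene with the largest rise.
Kcnk2 before the start used in STO cells, chr1:191226153-191226352, mm9, minus strand: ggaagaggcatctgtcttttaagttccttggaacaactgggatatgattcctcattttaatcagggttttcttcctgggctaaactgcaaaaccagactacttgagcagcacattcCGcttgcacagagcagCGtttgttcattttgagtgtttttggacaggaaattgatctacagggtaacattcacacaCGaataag
Kcnk2 before the most upstream of the starts with NSC signal, chr1:191168072-191168271, mm9, minus strand: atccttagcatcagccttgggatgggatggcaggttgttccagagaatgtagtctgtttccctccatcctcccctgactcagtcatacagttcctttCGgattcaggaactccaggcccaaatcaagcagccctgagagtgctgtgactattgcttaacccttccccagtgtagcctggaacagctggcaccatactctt
Kcnip3 before the start used in NSCs, chr2:127347129-127347328, mm9, minus strand: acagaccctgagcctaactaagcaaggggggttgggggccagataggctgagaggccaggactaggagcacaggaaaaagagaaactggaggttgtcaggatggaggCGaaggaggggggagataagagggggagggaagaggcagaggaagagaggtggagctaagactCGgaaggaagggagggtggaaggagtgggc
Kcnip3 before the start used in STO cells, chr2:127308236-127308435, mm9, minus strand: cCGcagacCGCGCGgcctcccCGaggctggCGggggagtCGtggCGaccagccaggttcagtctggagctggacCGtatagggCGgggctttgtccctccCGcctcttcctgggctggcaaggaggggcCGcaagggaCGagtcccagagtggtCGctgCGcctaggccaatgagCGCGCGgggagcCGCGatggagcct
Kcna2 before the start used in NSCs, chr3:106904285-106904484, mm9, plus strand: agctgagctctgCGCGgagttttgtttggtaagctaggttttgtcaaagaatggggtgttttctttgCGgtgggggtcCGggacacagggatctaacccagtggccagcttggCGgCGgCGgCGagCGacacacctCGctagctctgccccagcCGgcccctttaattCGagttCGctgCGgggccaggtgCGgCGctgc
The windows held 3 and 1 CG dinucleotides for Kcnk2, 2 and 20 for Kcnip3, and 16 for Kcna2. The other Kcnk2 sites with NSC signal had 20 and 21, the first of them at the site that held 51.8% and 49.8% of the signal, and Kcnd1 had 1; those windows overlap an annotated exon and are not printed. In Kcnk2 the CG-rich windows thus belonged to sites with NSC signal, and in Kcnip3 the CG-rich window belonged to the site with STO signal. Across genes, with 1 window each, the median number of CG dinucleotides was 12 for the 35 potassium channel genes with at least 1 FPKM in a cell type and 7 for the other 57. Among all other genes it was 14 for 10765 genes with at least 1 FPKM and 2 for 8970 genes below it. The GC box GGGCGG on either strand, which overlaps CG, stood in 60.0% and 40.4% of the potassium channel windows and in 61.0% and 20.4% of the others. The TATA box TATAAA on either strand stood in 4.35% of the 92 windows and in 9.35% of those of all other genes. A match is a description of the letters only.

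Genes that work with potassium channels did not all move the same way. Of a list of 41 sodium pump subunits, potassium-chloride transporters, HCN channels and channel partners, 23 were tested, 15 were higher and 8 lower in NSCs, where the shares over all tested genes were 43.7% and 41.9%, and their median log2 difference was 0.59 against 0.02 over all tested genes. The largest rises included those of Atp1b2, a beta subunit of the sodium pump known from glia, and of Fxyd6, a pump regulator. Atp1b2 was at 167 and 163 FPKM in NSCs and between 0.420 and 0.480 FPKM in STO cells. Fxyd6 was at 32.0 and 27.0 FPKM in NSCs and listed at 0 in STO cells. The largest falls included those of Fxyd5 and the transporter Slc12a7, with log2 differences of -3.50 and -3.03. Dpp6, whose product is an auxiliary subunit of Kv4 channels, is named here after its values were seen and was at 18.9 and 18.7 FPKM in NSCs and listed at 0 in STO cells, beside Kcnd2, Kcnd3, Kcnip1 and Kcnip3. Of 40 genes listed by symbol (Scn, Cacn) as sodium and calcium channel genes, 19 were tested. Of these 16 were higher and 2 lower, beside the same shares over all tested genes, with a median log2 difference of 1.30. A symbol alone does not show that a product, such as that of a Cacng gene, is a channel subunit. As for the potassium channel genes, the filter fixed the direction of the means of a gene that passed only through its high group. These counts therefore describe the tested genes of both lists only. Cacng4, Cacng5 and Cacna1h rose the most, with log2 differences of 5.98, 4.49 and 3.67, and Cacnb3 fell by 1.15 on the log2 scale.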

How the data were processed

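By the study's methods and the labels, libraries were stranded, made from mRNA, and paired-end reads were aligned to mm9. The submitters' processing notes name HISAT2 with version 4.8.2 and Cufflinks 2.2.1. The authors deposited FPKM values with confidence bounds for 40201 RefSeq transcripts per library, with depth and length already divided out and without read counts. Gene symbols were matched for 99.4% of transcripts through a GRCm38.p6 table that was used for names only. Coordinates are those of the files in mm9, and sequences were read from NCBIM37 with pysam 0.24.0. FPKM values were summed per symbol over 199 transcripts of potassium channel genes. Groups were taken from the labels and compared on the log2(FPKM + 1) scale by moderated linear models with a mean-variance trend (limma 3.58.1, R 4.3.3), for genes with a mean of at least 1 FPKM in a group, with a threshold of 0.05 on the Benjamini-Hochberg adjusted p-value. An exact permutation test of 2 against 3 libraries could not pass that threshold and was not used. The fit was tested on simulated data. Fragments were implied by taking the distance to the upper bound as 2 SD of a Poisson count. Other steps used Python 3.11.15, numpy 2.4.6, pandas 2.3.3 and matplotlib 3.10.9.

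The genes and lists were chosen with earlier results of these data known. Genes named with full statistics were the 12 largest rises and up to 12 largest falls among potassium channel genes with a log2 difference of at least 1 and groups that do not overlap, the highest gene of each class in each cell type, and up to 3 rises and 3 falls of the other lists. Further potassium channel genes were named after their values were seen, to account for each class. Alternatives changed the pseudocount, the filter, the scaling, the trend, the transcripts and libraries included and the replicate block. The libraries differed from each other more than a repeated deposit would, with correlations of 0.994 to 0.996 within groups. Samples with the same replicate number did not deviate together (r = 0.0029 and 0.065), so the numbers were not taken to pair them. Protein sequences were not used here, and a few genes of the lists are counted but not reported by name.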

Additional observations from a re-analysis of the deposited data

How the results depend on the processing

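The log2 differences of the 35 tested potassium channel genes and of the Kcnk2 and Kcnip3 start sites were recomputed under each alternative, 608 values in all, and 605 kept their direction and their side of the threshold. After quantile normalization Kcnj2 reversed to -0.11 and Kcnk5 to -0.27, and without NSC replicate 1 Kcnk5 fell to 0.18 and the neuronal marker Tubb3, at 0.06 with all libraries and past no threshold, reversed to -0.024, the lowest of its values from -0.024 to 0.14 with 1 library left out. Without NSC replicate 1 Kcnj2 fell below the filter and gave no value. With no filter on low values, 59 potassium channel genes were higher and 4 lower, 26 sodium and calcium channel genes were higher, and 63 start sites of potassium channel genes were higher and 6 lower. These are counts over more genes tested. With a minimum mean of 0.3 FPKM, 3 potassium channel genes and 5 of their start sites were lower. With a log2 difference of at least 1 required, 5 partner genes and 1 sodium or calcium channel gene were lower, 2613 genes in all were higher and 2099 lower, and 2543 start sites in all were higher and 2190 lower. Leaving out 1 library at a time gave between 33 and 34 potassium channel genes higher and 1 lower, and between 4899 and 5248 genes in all higher. With the replicate number as a block, 34 potassium channel genes were higher and 1 lower, and 5249 genes in all were higher and 4988 lower, so the block changed no call of a potassium channel gene. Upper quartile scaling moved the median log2 difference of all tested genes from 0.02 to 0.03 and quantile normalization moved it to -0.04. The start-site comparison and the sums over overlapping loci were added after the data were seen. With 2 NSC libraries, a value that differs between them, such as that of Kcnk10, is imprecise, and low FPKM values rest on few fragments.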

Other observations

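The 6 potassium channel genes below 1 FPKM in both cell types with lower values in both NSC libraries than in any STO library were Kcna4, Kcnab1, Kcne4, Kcnip4, Kcnj13 and Kcnt2. With no filter on low values, Kcnab1, Kcna4 and Kcnt2 were also called lower by limma, with log2 differences of -0.84, -0.21 and -0.15 and Benjamini-Hochberg adjusted p-values of 3.53e-05, 0.00934 and 0.00231. Kcnj13 lies within the locus of Gigyf2, which was at 18.2 and 18.9 FPKM in NSCs and between 22.1 and 23.2 FPKM in STO cells, and Kcnh3, listed at 0 in all libraries, overlaps Mcrs1, which was at 52.3 and 54.4 FPKM in NSCs and between 27.6 and 33.4 FPKM in STO cells.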
